A study of Gossypium bickii with 18 samples.

Results

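A set of 59 gene IDs of Gossypium bickii, an Australian diploid cotton, stood below 1 FPKM in cotyledons at 0 h after imbibition and at 20 FPKM or more from 12 h to 48 h. FPKM counts fragments for each kilobase of a gene and corrects for how many fragments the library mapped. The members were chosen from the time-course table of 43790 gene IDs by 3 terms. Each of the 3 libraries at 0 h had to be below 1 FPKM, the mean of 3 libraries had to be at least 20 FPKM at each of 12, 24, 36 and 48 h, and the largest of these 4 means had to be less than 4 times the smallest. Of the 2488 IDs that met the 12 h to 48 h terms at any level at 0 h, 2.37% were members. Another 2333 of them stood at 1 FPKM or more in every library at 0 h, and the remaining 96 had libraries on both sides of that limit at 0 h.

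The series profiled RNA of cotyledons along germination and under light and dark, in 18 libraries forming 6 groups of 3. Groups were cotyledons at 12, 24, 36 and 48 h after imbibition under light, cotyledons at 24 h in the dark, and cotyledons at 0 h with no light condition in the labels. No genotype or other agent is labelled. The dark libraries stand in a second table that the authors made separately, together with libraries of 24 h light, and that table has no 0 h column. The files do not pair IDs with gene names, so no function can be given for any member, and marker genes of cotyledon cells could not be looked up. The time-course columns at 24 h do not state light or dark. Their replicate deviations correlated at 0.872 to 0.877 with the labelled light columns of the same number over 13383 IDs, and at -0.101 to 0.150 with the dark columns.

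A dry seed carries messenger RNA stored during its maturation. Imbibition, the uptake of water, restarts metabolism, and new transcripts are then made while much of the stored RNA is degraded. Cotton cotyledons hold the seed's reserves, which are mobilised during germination, and become photosynthetic in the light after they emerge. Cotton cotyledons can also carry pigment glands, which store terpenoid aldehydes such as gossypol. Whether glands were present in these cotyledons at any of the times was not examined. In bulk samples, a change in the share of cells of a type and a change of RNA per cell cannot be told apart.

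The choice of members fixed their levels at 0 h and their rise by 12 h, which are given as a description without a test. At 0 h, 10 of the 59 IDs were listed at 0 in all 3 libraries, 13 in 2 libraries and 16 in 1 library, while 20 had a value above 0 in every library. An exact 0 in FPKM can be a failed estimate, and absolute depth is unknown, so no fold change against 0 h is given. Summed over the 59 IDs, 0 h replicates 1, 2 and 3 held 10.9, 22.9 and 9.39 FPKM. Replicate 2 was the highest of these, and its median member stood at 0.366 FPKM, against 0.0206 and 0 FPKM in replicates 1 and 3. Without replicate 2, the same rule would take in 122 IDs, namely the 59 members and 63 more.

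After imbibition the set held under 1% of all FPKM. At 12, 24, 36 and 48 h its sum averaged 3030 ± 73.5, 4362 ± 86.8, 4641 ± 257 and 3156 ± 243 FPKM (SD, n = 3 each). As a share of the library, these sums were 0.564% ± 0.0323, 0.797% ± 0.0143, 0.862% ± 0.0483 and 0.560% ± 0.0493. The sum was thus highest at 24 h and 36 h, and the libraries of these times did not overlap with those of 12 h and 48 h. The median member stood at 31.1 ± 1.57, 48.5 ± 2.17, 51.4 ± 1.62 and 38.7 ± 5.86 FPKM (SD of library medians, n = 3) at 12, 24, 36 and 48 h. Of the members, 36 reached 20 FPKM in all 12 libraries from 12 h to 48 h.

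Most members were of moderate abundance. The mean over the 12 libraries from 12 h to 48 h lay between 20 and 50 FPKM for 33 IDs, between 50 and 100 FPKM for 21, and above 100 FPKM for 5. The median was 47.9 FPKM, against 50.2 FPKM among the 2333 IDs that met the same terms but were already at 1 FPKM or more at 0 h. Those IDs had a median 0 h mean of 36.4 FPKM, against 0.190 FPKM for the members. The ratio of the largest to the smallest time mean had a median of 2.45 in the members and of 1.79 in that set.

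**Figure D1:**
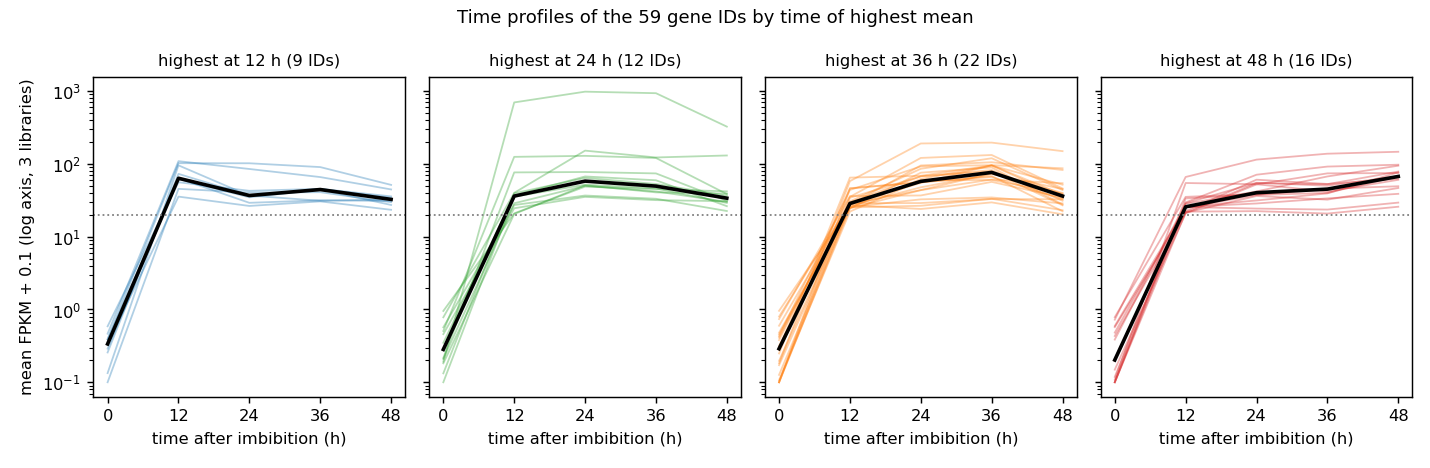
Mean FPKM + 0.1 (log axis) against time after imbibition (h) for the 59 gene IDs, in panels by the time of the highest mean. Coloured lines are IDs, black lines are panel medians, and the dotted line is the 20 FPKM minimum. All IDs are under 1 FPKM at 0 h, and the IDs fall into panels of 9, 12, 22 and 16.

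Within the allowed range the members followed different courses, shown in the plot of time profiles. The highest mean was that of 12 h for 9 IDs, of 24 h for 12, of 36 h for 22 and of 48 h for 16. The lowest of the 4 means fell at 12 h for 33 IDs and at 48 h for 21. IDs highest at 12 h had medians of 63.3, 36.6, 44.3 and 32.4 FPKM at 12, 24, 36 and 48 h. IDs highest at 36 h had medians of 28.5, 57.4, 76.2 and 36.0 FPKM at these times. IDs highest at 48 h went from a median of 25.6 FPKM at 12 h through 40.1 and 44.9 FPKM to 67.0 FPKM. Among the 2333 IDs present at 0 h, 35.4% had their highest mean at 12 h, against 15.3% of the members. For 24, 36 and 48 h these shares were 24.3%, 20.5% and 19.8%, against 20.3%, 37.3% and 27.1% of the members. Both sets were chosen by these same means, so the shares are given as a description without a test.

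The members named below for their levels are the 2 most abundant, the 2 steadiest and the 2 with the largest difference between 48 h and 12 h in each direction. The plot of 8 gene IDs shows their values by library. Gbi11G1925 was the most abundant. At 0 h it stood at 0, 0.201 and 0.0749 FPKM, and at 12 h at 665, 857 and 570 FPKM. At 24 h it reached 823, 1284 and 834 FPKM and at 36 h 768, 695 and 1338 FPKM, where 1 library at each time stood well above the others. At 48 h it stood at 304, 328 and 341 FPKM, all below every library of 12 h to 36 h. Without this ID, the summed FPKM of the set at 24 h was 3381 ± 194 (SD, n = 3) in place of 4362 ± 86.8.

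Gbi09G0286 came next in abundance and was higher from 24 h on. Its values were 62.1, 58.0 and 53.3 FPKM at 12 h and 204, 163 and 204 FPKM at 24 h. At 36 h it stood at 235, 220 and 133 FPKM, and at 48 h at 141, 123 and 184 FPKM. Libraries of 12 h all lay below those of the later times, which overlapped with each other. At 0 h it stood at 0.0323, 0.214 and 0 FPKM.

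**Figure D2:**
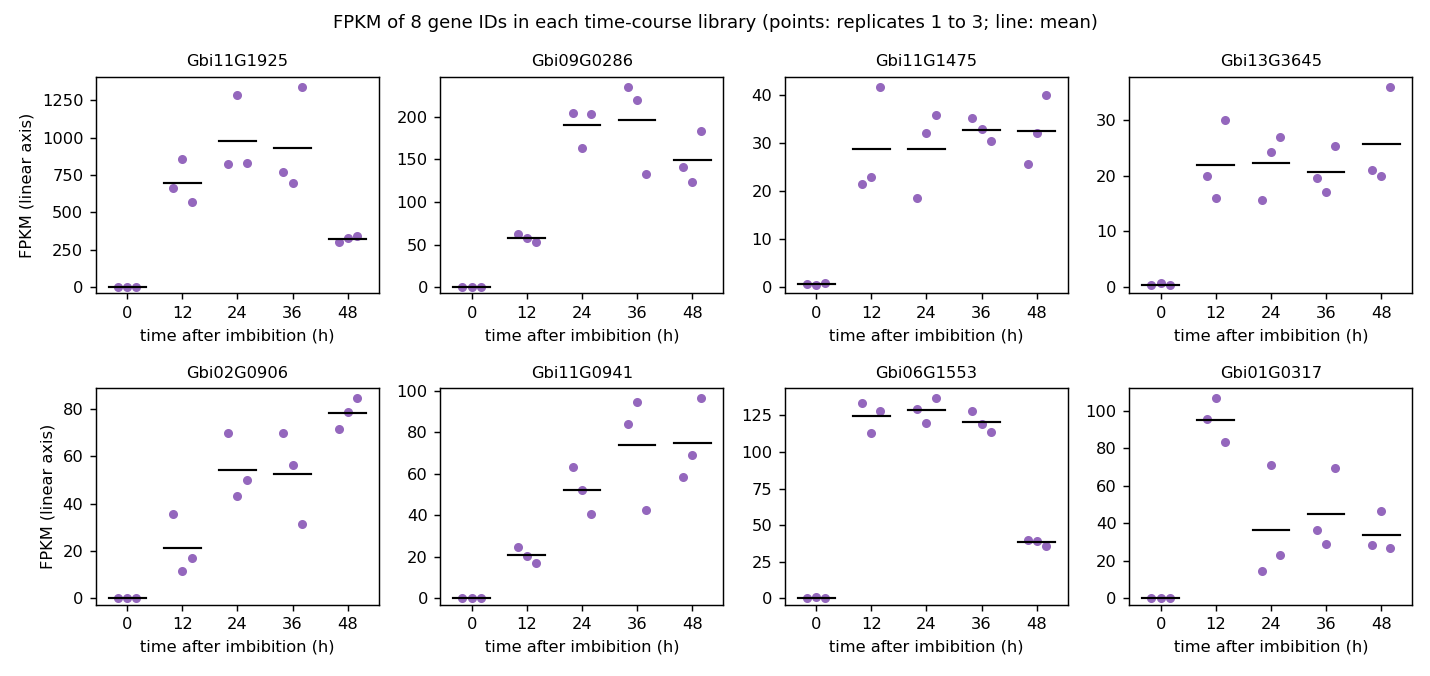
FPKM (linear axes, each from 0) of 8 gene IDs against time after imbibition (h), with a point for each library and a line for the mean of 3. Gbi11G1925 and Gbi06G1553 drop at 48 h, Gbi02G0906 and Gbi11G0941 climb after 12 h, and Gbi11G1475 and Gbi13G3645 stay level within the spread of their libraries.

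The steadiest members were Gbi11G1475, whose largest time mean was 1.14 times the smallest, and Gbi13G3645, where this ratio was 1.24. Gbi11G1475 averaged 28.7 ± 11.2, 28.8 ± 9.11, 32.8 ± 2.42 and 32.5 ± 7.21 FPKM (SD, n = 3) at 12, 24, 36 and 48 h. Its values overlapped at all 4 times. Gbi13G3645 averaged 22.0 ± 7.18, 22.3 ± 5.98, 20.7 ± 4.29 and 25.7 ± 8.90 FPKM (SD, n = 3). It lay close to the 20 FPKM minimum, reaching it in only 6 of the 12 libraries, the fewest of any member. The ratio of means was under 1.5 in 9 IDs, from 1.5 to 2 in 10, from 2 to 3 in 25 and from 3 to 4 in 15.

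Gbi02G0906 and Gbi11G0941 had the largest log2(FPKM + 1) differences of 48 h over 12 h, at 1.96 (SE 0.34) and 1.78 (SE 0.27). Gbi02G0906 was listed at 0 in all 3 libraries at 0 h. It stood at 71.6, 78.8 and 84.3 FPKM at 48 h, against 35.6, 11.7 and 17.1 FPKM at 12 h. Gbi11G0941 stood at 58.3, 69.3 and 96.3 FPKM at 48 h, against 24.96, 20.4 and 16.9 FPKM at 12 h. In both IDs every 48 h library lay above every 12 h library. The level of Gbi11G0941 rests on the time course alone, as its 24 h light mean was 52.1 FPKM there but 1.29 FPKM in the light-dark table.

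Gbi06G1553 and Gbi01G0317 had the lowest differences, at -1.67 (SE 0.19) and -1.49 (SE 0.43). Gbi06G1553 kept a plateau and then dropped, with 133, 113 and 128 FPKM at 12 h and 130, 120 and 137 FPKM at 24 h. Its libraries of 36 h held 128, 119 and 114 FPKM, and those of 48 h held 40.1, 38.9 and 35.9 FPKM. The drop was many times the spread, whose CV was between 5.63% and 8.34% at each time. Gbi01G0317 was high at 12 h, with 95.9, 107 and 83.2 FPKM. It then scattered, with 14.9, 71.0 and 23.1 FPKM at 24 h, 36.4, 29.2 and 69.6 FPKM at 36 h and 28.8, 46.4 and 26.9 FPKM at 48 h.

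Among the 10 IDs listed at 0 in every 0 h library, Gbi09G3067 and Gbi03G2405 had the highest means. Gbi09G3067 averaged 27.2 ± 1.93, 94.9 ± 19.1, 105 ± 7.39 and 82.3 ± 27.2 FPKM (SD, n = 3) at 12, 24, 36 and 48 h. Gbi03G2405 averaged 29.4 ± 3.98, 70.8 ± 17.8, 91.7 ± 21.0 and 97.2 ± 14.9 FPKM (SD, n = 3) at these times. Both were lowest at 12 h, with no library of that time reaching those of the later times.

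Between consecutive times, members were called in the first step and the last and not in the middle one. The middle step also had the fewest calls over all IDs. The rule used these same means, so the counts below describe the set and support nothing. A call required a Benjamini-Hochberg adjusted p under 0.05 in limma and an absolute log2 difference of at least 1. At 24 h against 12 h, 16 members were called higher and 2 lower, beside 9.53% and 2.21% of the 26086 IDs tested. At 36 h against 24 h limma called 0 of them in either direction, beside 2.58% and 0.579% of all IDs, and 8, or 13.6%, had an unadjusted p under 0.05, against 20.1% of all IDs. At 48 h against 36 h, 12 were called lower and 0 higher, beside 12.3% and 14.8% of all IDs, and 28, or 47.5%, had an unadjusted p under 0.05, against 58.3% of all IDs. Of the 16 that had been called higher in the first step, 4 were among the 12 called lower in the last. In neither step were 33 members called. These combinations were not counted over all IDs, so they are not read as a trait of the members. From the first step to the last, the median ratio of the later to the earlier mean was 1.47, then 1.08 and then 0.763. The 2333 IDs at 1 FPKM or more at 0 h were held to the same limit on the ratio of means. From the first step to the last, 3.56%, 0% and 2.01% of them were called higher, against 27.1%, 0% and 0% of the members. Called lower were 0.429%, 0.171% and 16.6% of them, against 3.39%, 0% and 20.3% of the members. The lack of calls in the middle step was thus nearly shared by that set.

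At 48 h against 12 h, 15 members were called higher and 11 lower, beside 26.6% and 16.4% of all IDs tested. In the 2333 IDs already at 1 FPKM or more at 0 h, 7.03% were called higher and 21.4% lower, against 25.4% and 18.6% of the members. The median log2 difference was 0.21 over the members and 0.12 over all IDs. Calls lower numbered 5 with a pseudocount of 0.1 and 7 without 48 h replicate 1.

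Replicates differed more in some members than in others. The CV among the 3 libraries of a time had medians over the members of 13.8%, 21.8%, 18.7% and 23.7% at 12, 24, 36 and 48 h. Over the 2896 IDs with every mean from 12 h to 48 h at 20 FPKM or more, the medians were 11.7%, 9.92%, 14.0% and 20.8%. The largest CV was 83.3%, in Gbi01G0317 at 24 h, and 69.5% in Gbi03G2418 at 48 h, which stood at 14.6, 40.0 and 12.1 FPKM.

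Cotyledons kept in light or in the dark until 24 h give the levels of the members under both conditions at that time. The dark libraries had no part in choosing the members, but the 24 h light libraries did, through their time-course columns. Levels of 20 FPKM or more in light are therefore largely set by the rule. Most members were also present in the dark, while 4 stood under 1 FPKM in every dark library. These were Gbi02G1625, Gbi08G1310, Gbi11G0941 and Gbi13G1588. Their light means in this table, at 9.45, 0.313, 1.29 and 10.2 FPKM, were also more than 3-fold below those of the time course, as described below. Their low dark values are therefore not read as a loss in the dark. Of the 59 IDs, 54 stood at 20 FPKM or more in every light library of this table, and 50 of these did so in every dark library. The other 4 had a lower dark value, and no dark library of the 54 IDs stood below 9.36 FPKM. Within the 54, the ratio of the dark to the light mean had a median of 0.959 and was within 2-fold either way for 48 IDs. Over all 59, this ratio was within 2-fold for 50 IDs, under 0.5 for 7 and over 2 for 2. Of the 7 under 0.5, only 4 were among the 54. The matching shares over all IDs were not computed, so these counts are not read as particular to the members. With no 0 h library in this table and no dark library at 12 h, the rise by 12 h itself cannot be compared between light and dark.

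Summed over the 59 members, light replicates 1, 2 and 3 held 5211, 5355 and 5020 FPKM, against 4476, 4670 and 5207 FPKM in dark replicates 1, 2 and 3. The groups overlapped, since dark replicate 3 lay above light replicate 3. The ratio of means was 1.09, and 0.974 after median-of-ratios scaling. Without Gbi11G1925, the sums were 3978 ± 210 FPKM in light and 3987 ± 226 FPKM in the dark (SD, n = 3 each).

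Calls between light and dark were few among the members, as among all IDs tested. Of the 59, 55 passed the filter of 1 FPKM in at least 3 libraries. In limma, 1 was called higher in light and 1 lower, beside 2.55% and 0.607% of the 23059 IDs tested. The median log2 difference was 0.10 over the members and 0.13 over all IDs. After median-of-ratios scaling these medians were -0.06 and -0.00, so a direction for the set is not given. At an unadjusted p under 0.05 stood 17 members, or 30.9%, against 29.3% of all IDs. Light and dark libraries did not overlap in 9 members with higher and 11 with lower values in light, or 16.4% and 20% of those tested, beside 23.5% and 11.8% of all IDs. Of the 2333 IDs that met the same 12 h to 48 h terms with 1 FPKM or more at 0 h, 2296 were tested. Among these, 16.6% had higher and 26.6% lower values in light without overlap. The excess of lower over higher values was thus not particular to the members.

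The intervals show how much of a difference these libraries leave possible. For 35 of the 55 members, the 95% interval of the log2 difference lay within 1 unit either way, a share of 63.6% against 64.1% of all IDs. All IDs include many of lower level. Among the 2296 tested IDs that met the same 12 h to 48 h terms with 1 FPKM or more at 0 h, the share was 79.1%. Intervals this narrow were thus less frequent among the members than in that set of like abundance. For the other 20 members, a difference of 2-fold or more was inside the interval. A p that missed the threshold therefore does not show equal levels in those IDs.

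**Figure D3:**
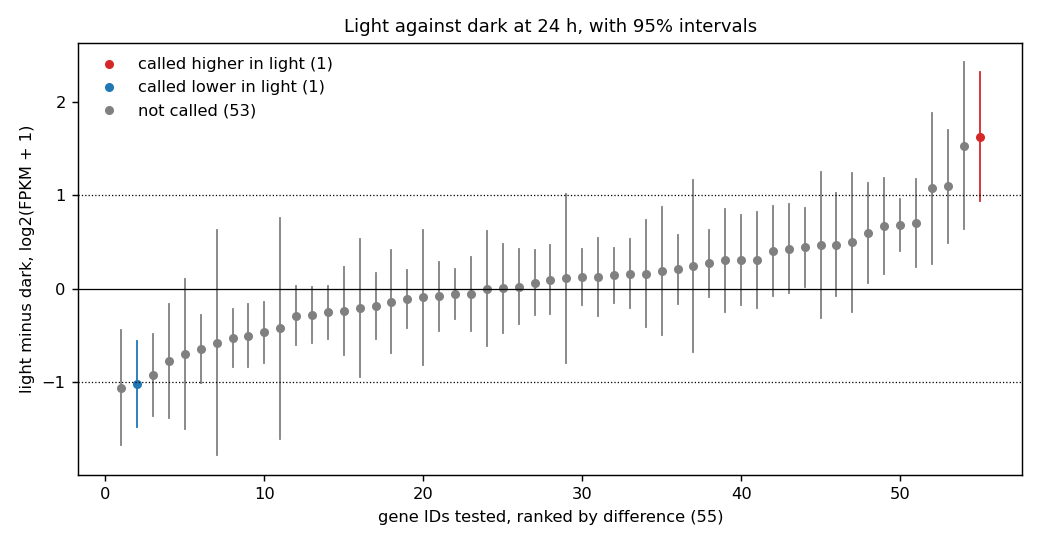
Light minus dark difference at 24 h in log2(FPKM + 1) for the 55 gene IDs tested, ranked, with 95% intervals from limma. Dotted lines mark 1 unit either way; 1 ID is called higher in light, 1 is called lower and 53 are not called.

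Gbi01G1405 was the member called higher in light. It stood at 21.5, 44.8 and 47.1 FPKM in light, against 9.36, 10.5 and 13.1 FPKM in the dark. The log2 difference was 1.63 (SE 0.30, limma adjusted p = 0.0290), and every light library lay above every dark library. In the time course it was listed at 0 in all 0 h libraries and averaged 25.6 ± 3.43, 28.5 ± 10.3, 33.4 ± 18.6 and 38.6 ± 17.7 FPKM (SD, n = 3) at 12, 24, 36 and 48 h. The call was lost without light replicate 2 (adjusted p = 0.0897), light replicate 3 (0.116), dark replicate 1 (0.0826) or dark replicate 2 (0.114), and with no filter (0.0720).

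Gbi03G2418 was the member called lower in light, at 37.7, 60.6 and 40.9 FPKM against 107, 86.6 and 87.1 FPKM in the dark. Its log2 difference was -1.02 (SE 0.20, limma adjusted p = 0.0341), and the groups did not overlap. It averaged 46.2 ± 9.80, 55.8 ± 17.1, 67.8 ± 38.4 and 22.2 ± 15.5 FPKM (SD, n = 3) at 12, 24, 36 and 48 h. The difference fell under 1 unit or lost its adjusted p without light replicate 1 (0.0963) or 3 (0.132), without dark replicate 1 (0.0889) or 2 (0.113), with no filter (0.0744) and with the replicate number as a block (0.0595), and it was -0.99 after quantile normalization.

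The 2 most abundant members did not pass. Gbi11G1925 stood at 1033, 1596 and 1021 FPKM in light, against 630, 803 and 959 FPKM in the dark, a log2 difference of 0.60 with a 95% interval from 0.06 to 1.13 (limma adjusted p = 0.137). All 3 light libraries lay above the dark ones. Gbi09G0286 averaged 220 ± 14.9 FPKM in light and 183 ± 32.6 FPKM in the dark (SD, n = 3 each), a log2 difference of 0.27 with an interval from -0.08 to 0.63 (limma adjusted p = 0.271). Here dark replicate 3, at 219 FPKM, lay within the light values of 229, 203 and 228 FPKM.

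The members that met only 1 of the 2 terms of a call were picked after their values were seen. With an adjusted p under 0.05 but a log2 difference under 1 unit stood 1 ID in each direction. Gbi09G2900 stood at 187, 156 and 169.99 FPKM in light, against 107, 110.2 and 101 FPKM in the dark (log2 difference 0.68, SE 0.12, limma adjusted p = 0.0267). Gbi08G1007 stood at 61.7, 38.4 and 56.2 FPKM in light, against 103, 99.8 and 89.5 FPKM in the dark (log2 difference -0.92, SE 0.19, limma adjusted p = 0.0393). After median-of-ratios scaling it was called lower (-1.07, limma adjusted p = 0.0352). Light and dark did not overlap in either ID.

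Past 1 log2 unit but with an adjusted p over 0.05 stood 4 members, 3 higher and 1 lower in light. Gbi02G2074 stood at 22.3, 36.3 and 73.7 FPKM in light, against 10.7, 13.8 and 14.6 FPKM in the dark (log2 difference 1.53, SE 0.38, limma adjusted p = 0.0626). Gbi05G1564 stood at 59.5, 48.6 and 53.6 FPKM in light, against 149, 133 and 71.8 FPKM in the dark (log2 difference -1.06, SE 0.26, limma adjusted p = 0.0625). Gbi02G0906, described above for its climb to 48 h, stood at 86.1, 53.2 and 62.1 FPKM in light, against 24.8, 25.5 and 43.4 FPKM in the dark (log2 difference 1.10, SE 0.26, limma adjusted p = 0.0544). In these 3 the groups did not overlap. Gbi09G2208 stood at 59.3, 47.9 and 33.2 FPKM in light, against 14.5, 17.7 and 36.3 FPKM in the dark (log2 difference 1.07, SE 0.35, limma adjusted p = 0.0973), and its groups overlapped.

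Levels of the same 24 h libraries differed between the authors' tables for part of the set. For 54 members the light mean of the light-dark table was 0.759 to 1.94 times the 24 h mean of the time course. Over the 5325 IDs at 20 FPKM or more at 24 h in the time course, this ratio had a median of 1.25. The other 5 IDs, or 8.47% of members, stood more than 3-fold lower in the light-dark table, as did 5.18% of the 5325 IDs at 20 FPKM or more at 24 h in the time course. They are Gbi02G1625, Gbi08G1310, Gbi10G1693, Gbi11G0941 and Gbi13G1588, named because they are so few. The cause was not tested, and their level after imbibition rests on the time-course table alone.

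**Figure D4:**
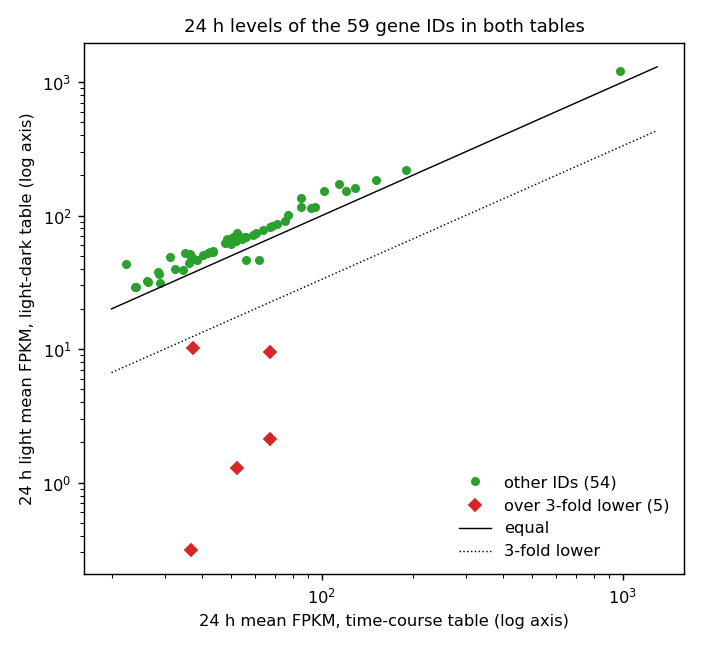
Mean FPKM of the 59 gene IDs at 24 h in the time-course table (horizontal, log axis) and in light in the light-dark table (vertical, log axis). The solid line marks equal values and the dotted line a 3-fold lower value; 54 IDs lie near the solid line and 5 (diamonds) below the dotted line.

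Gbi08G1310 had the largest gap, with 26.3, 36.1 and 47.7 FPKM at 24 h in the time course but 0.387, 0.335 and 0.216 FPKM in light and 0.140, 0.192 and 0.296 FPKM in the dark in the other table. Gbi11G0941 stood at 63.4, 52.4 and 40.6 FPKM at 24 h in the time course. In the light-dark table it was at 0, 3.23 and 0.638 FPKM in light and listed at 0 in all dark libraries. Gbi10G1693 averaged 67.0 ± 15.3 FPKM at 24 h in the time course (SD, n = 3), and 2.11 ± 1.07 FPKM in light and 1.14 ± 0.463 FPKM in the dark in the other table.

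In Gbi02G1625 and Gbi13G1588 the light libraries of the light-dark table also split. Gbi02G1625 stood at 0.464, 20.7 and 7.20 FPKM in light, against 0.492, 0.495 and 0.477 FPKM in the dark, while the time course gave 59.9, 66.7 and 74.4 FPKM at 24 h. Gbi13G1588 stood at 0.198, 24.0 and 6.38 FPKM in light, against 0, 0.0528 and 0 FPKM in the dark, while the time course gave 23.1, 57.0 and 31.6 FPKM. In both, light replicate 1 was at or near the dark level and light replicate 2 was the highest. Only Gbi10G1693 of the 5 passed the filter, and it was not called.

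The IDs of the members were spread over 13 prefixes, the part of the ID before the letter G. The prefix Gbi09 held 11 members of 3446 IDs, and Gbi13 held 8 of 5367. Gbi09G1438 and Gbi09G1439 were the only members with consecutive numbers, and 7 pairs with a shared prefix lay within 15 numbers. These 2 IDs had like courses, with means of 63.3 ± 7.56, 29.1 ± 7.41, 31.5 ± 8.22 and 30.8 ± 14.3 FPKM for Gbi09G1438 (SD, n = 3) at 12, 24, 36 and 48 h. Gbi09G1439 averaged 61.5 ± 7.29, 34.6 ± 11.2, 44.3 ± 18.5 and 27.1 ± 10.8 FPKM (SD, n = 3). Gbi09G1434, 4 numbers away, ran the other way, from a mean of 22.0 FPKM at 12 h through 58.96 and 60.04 to 38.9 FPKM at 48 h. Whether reads are shared between such IDs was not tested.

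Some members lay close to the limits of the rule. Gbi02G0612 had the highest 0 h library inside it, at 0.987 FPKM, and Gbi08G0464 was left out at 1.04 FPKM. The lowest mean inside was 20.2 FPKM in Gbi13G2534, and Gbi13G4883 was left out at 19.96 FPKM. The largest ratio of means inside was 3.93 in Gbi08G3067, and Gbi08G1808 was left out at 4.08. With FPKM scaled by median of ratios, 44 IDs met the rule, of which 42 were members. With each library rescaled to the mean library total, 66 IDs met it, all 59 members among them. With each rescaled to a total of 1000000, which also raises every value against the fixed limits, 114 IDs met it, of which 37 were members.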

How the data were processed

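Per the labels' protocols, libraries of total RNA were made with the NEBNext Ultra kit and sequenced as read pairs. Per the submitters' processing notes, the tools included Trimmomatic 0.36, HISAT2 2.0.4 and HTSeq 0.6.0. A genome build, annotation or strand setting was not given in the sources used here. As values, the authors deposited FPKM in 2 tables, of 15 and 6 libraries. The 24 h columns of the time course were taken as light, since the other imbibed libraries in it are light ones. In the light-dark table, repeated steps of low values gave depths of 1.055 to 1.16 relative to dark replicate 1. The time course showed no such steps, so absolute depth is unknown.

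Times, and light and dark, were compared within a table only. Values of the 2 tables were set side by side only at 24 h, to identify columns and to compare levels. Tests were two-sided, with limma 3.58.1 (R 4.3.3) on log2(FPKM + 1), with a mean-variance trend and no covariate. IDs at 1 FPKM or more in at least 3 libraries were tested, and p-values were adjusted by the Benjamini-Hochberg method over all of them. The 5 times shared a fit. The log2(FPKM + 1) scale understates changes of low values. The labels call the replicates biological without naming separate plants or seed lots, so p-values measure the spread between these libraries, which may be technical. Simulated data with 200 changed IDs were tested. Of 100 changed by 1.5 log2 units, 80 were recovered for light against dark (23059 IDs) and 89 for 48 h against 12 h (26086 IDs). False calls numbered 11 and 2 in these comparisons. The changed IDs were drawn from the more abundant ones, with independent normal noise, so recovery in the real data may be lower. Gene lists written by symbol could not be matched to IDs. IDs were named by rank within a category, 2 for each direction, except where a sentence says otherwise. The members, lists and rules were chosen with earlier results of these data known. Alternatives covered the pseudocount, filter, scaling, replicate block and each library left out.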

Additional observations from a re-analysis of the deposited data

How the results depend on the processing

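For light against dark, the counts higher and lower were 0 and 0 with no filter, 2 and 1 with a filter at 5 FPKM, 1 and 2 with median-of-ratios scaling, 1 and 0 with quantile normalization, and 2 and 2 with no minimum difference. With the replicate number as a block they were 2 and 0. Leaving out each library gave 0 to 4 higher and 0 to 2 lower, with 4 and 2 without dark replicate 3. The median difference was -0.0565 after median-of-ratios scaling and ran from -0.0225 (without dark replicate 1) to 0.16 with a library left out. The light over dark ratio of sums was 0.974 after median-of-ratios scaling and 1.05 to 1.14 with a library left out. For 48 h against 12 h, calls lower fell to 5 with a pseudocount of 0.1 and ran from 7 to 11 with a library left out, and calls higher from 14 to 18. The median was 0.12 after quantile normalization, where all IDs had -0.19, and 0.15 to 0.31 with a library left out.

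The settings for consecutive steps were chosen after seeing the data. At 24 h against 12 h, 1 was lower with a pseudocount of 0.1, and leaving out a library gave 15 to 20 higher, 0 to 3 lower and medians of 0.46 to 0.61. At 36 h against 24 h, 1 was higher with no minimum difference, and medians ran from 0.0570 to 0.152. At 48 h against 36 h, 3 were higher and 19 lower with no minimum difference, and 1 was higher after quantile normalization. Leaving out a library gave 0 to 1 higher, 12 to 14 lower and medians of -0.52 to -0.28. The rule found 114 IDs after rescaling each library to a total of 1000000, which also raises every value against its limits, and 53 to 122 with a library left out. The causes were not tested. Same-numbered libraries were not paired by their deviations, which correlated at -0.0922 to 0.0996 in the comparisons of light with dark and of 48 h with 12 h.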
